A study of Danio rerio with 30 samples.

Results

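The small RNA counts of the zebrafish spleen included 99 rows named neither after a known microRNA (miRNA) nor with a species prefix, but by a chromosome or scaffold and a number, such as chr13_7690. They were chosen by name alone and make up 99 of the 8866 rows in the count table, beside 372 rows with zebrafish miRNA names and 8395 rows named after miRNAs of other species. Of the 99 rows, 52 have a number of their own, and 47 carry a further suffix. The 47 share 14 numbers, so that the rows come down to 66 numbered IDs. The labels do not explain the suffix. Rows that share a number are called copies here, a name inferred from the near-even split of counts in most of them. The IDs lie on 22 chromosomes, apart from 2 scaffold-named IDs.

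The spleens came from adult zebrafish of the AB strain, 100 days after fertilisation, kept as embryos and larvae at 24, 28 or 32 °C. Each temperature gave 5 libraries from LPS fish and 5 from control fish, 30 libraries in 6 groups. LPS fish were injected into the body cavity with 2 µl of lipopolysaccharide of Pseudomonas aeruginosa at 50 mg/ml, and spleens were taken 12 h later. The labels do not say whether control fish received an injection or whether each library is 1 fish. The p-values below therefore cover only the spread between libraries, which may be technical. In whole spleens, fewer cells of a type and less RNA per cell cannot be told apart.

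A miRNA is cut from a hairpin precursor, first in the nucleus by Drosha and then in the cytoplasm by Dicer, and the short strand that is kept guides Argonaute proteins to matching messenger RNAs. Programs that predict miRNAs search a genome for places where short reads stack on one arm of a possible hairpin, and a candidate found in this way is commonly named by its chromosome and a running number until it is matched to a family. Other short RNAs, such as fragments of transfer or ribosomal RNA, can form similar stacks, and a short sequence present at several loci gives reads that belong to all of them equally. The files record only the names and counts of these rows. Whether the rows are predicted miRNAs, which sequences they hold and where in the genome they lie were not analysed here. The number in a name is below 1000 for every ID on chromosome 1, and runs from 43244 to 47767 on chromosome 9. It is not a position that the files explain, and no role is given to any ID.

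Total counts ran from 199431 to 7584818 per library, and depth moved with temperature: the median total over 10 libraries was 352754 at 24 °C, against 697494 at 28 °C and 1066364 at 32 °C, and of the 4 deepest libraries 3 were at 32 °C. Levels are given as CPM, counts scaled to a common library size. With 3 counts as the limit that a count of 0 allows, the deepest library could miss up to 0.596 CPM and the shallowest up to 13.0 CPM. These limits are on the same scale as the CPM given below and cover counting error only. All 6 zebrafish-named rows of leukocyte miRNAs (miR-142, miR-223, miR-150 and miR-155) had counts, and their summed share ranged from 0.0938 to 0.725% of a library. The 7 rows of vascular and stromal miRNAs summed to median shares of 1.06, 1.78 and 2.55% for 24, 28 and 32 °C, and the liver miRNA miR-122 to 0.122, 0.0960 and 0.299%. The vascular and stromal share reached 1.83% at 24 °C and 3.13% at 28 °C. At 32 °C it was 16.9% in control replicate 7 and 7.85 and 4.85% in LPS replicates 5 and 7. Chromosome-named rows held 0.264, 0.830 and 1.01% of counts in those libraries, in that order. Red-cell and thrombocyte miRNAs had medians of 0.385, 0.482 and 0.335%, and 4.71% in control replicate 7 at 32 °C. The part of depth and of these cell types in the temperature differences that follow was not tested separately, except where a value without the deepest libraries or with depth in the model is given.

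One row held most of the counts. The chromosome-named rows summed to 1036344 of 39070530 counts, 2.65% of all, and chr13_7690 alone held 773491 of these, 74.6% of the members' counts and 1.98% of all counts. It was the row with rank 7 by total count among all 8866, whereas the next member, chr9_44794, had rank 56. With copies of a number summed, the 5 most abundant IDs held 86.3% of the members' counts and the 10 most abundant 92.0%. Chromosome 13 therefore carried 74.8% of the members' counts with 2 IDs, chromosome 9 carried 7.47% with 5 IDs, and chromosome 1 carried 6.4% with 9 IDs in 22 rows.

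Detection was uneven. Counts were present for 96 of the 99 rows. Of the 66 IDs, 5 had counts in all 30 libraries (chr13_7690, chr9_44794, chr1_395, chr9_43244 and chr1_443), 16 had counts in 25 or more, 39 in fewer than 15, and 27 in fewer than 7. For 24 IDs more than 50% of the counts lay in a single library, and 7 IDs had counts in 1 library only. Of these 7, the 5 with at least 50 counts were chr17_14206 with 304 counts, chr22_25743 with 259, chr19_17605 with 193, chr7_41289 with 184 and chr14_9433 with 163.

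A value was usually either absent or well above the counting limit. Over 66 IDs and 30 libraries there are 1980 values, of which 1120 were 0 and 653 were 20 counts or more. Among the 860 values above 0, 16.5% were 1 to 4 counts, 7.56% were 5 to 19 counts, and 75.9% were 20 counts or more. 2 IDs had low counts in many libraries instead: chr23_27416 had counts in 19 libraries and at most 13 in any, and chr7_87201 had counts in 17 libraries and at most 15. These examples and the IDs found in 1 library were picked out after their values were seen.

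**Figure D1:**
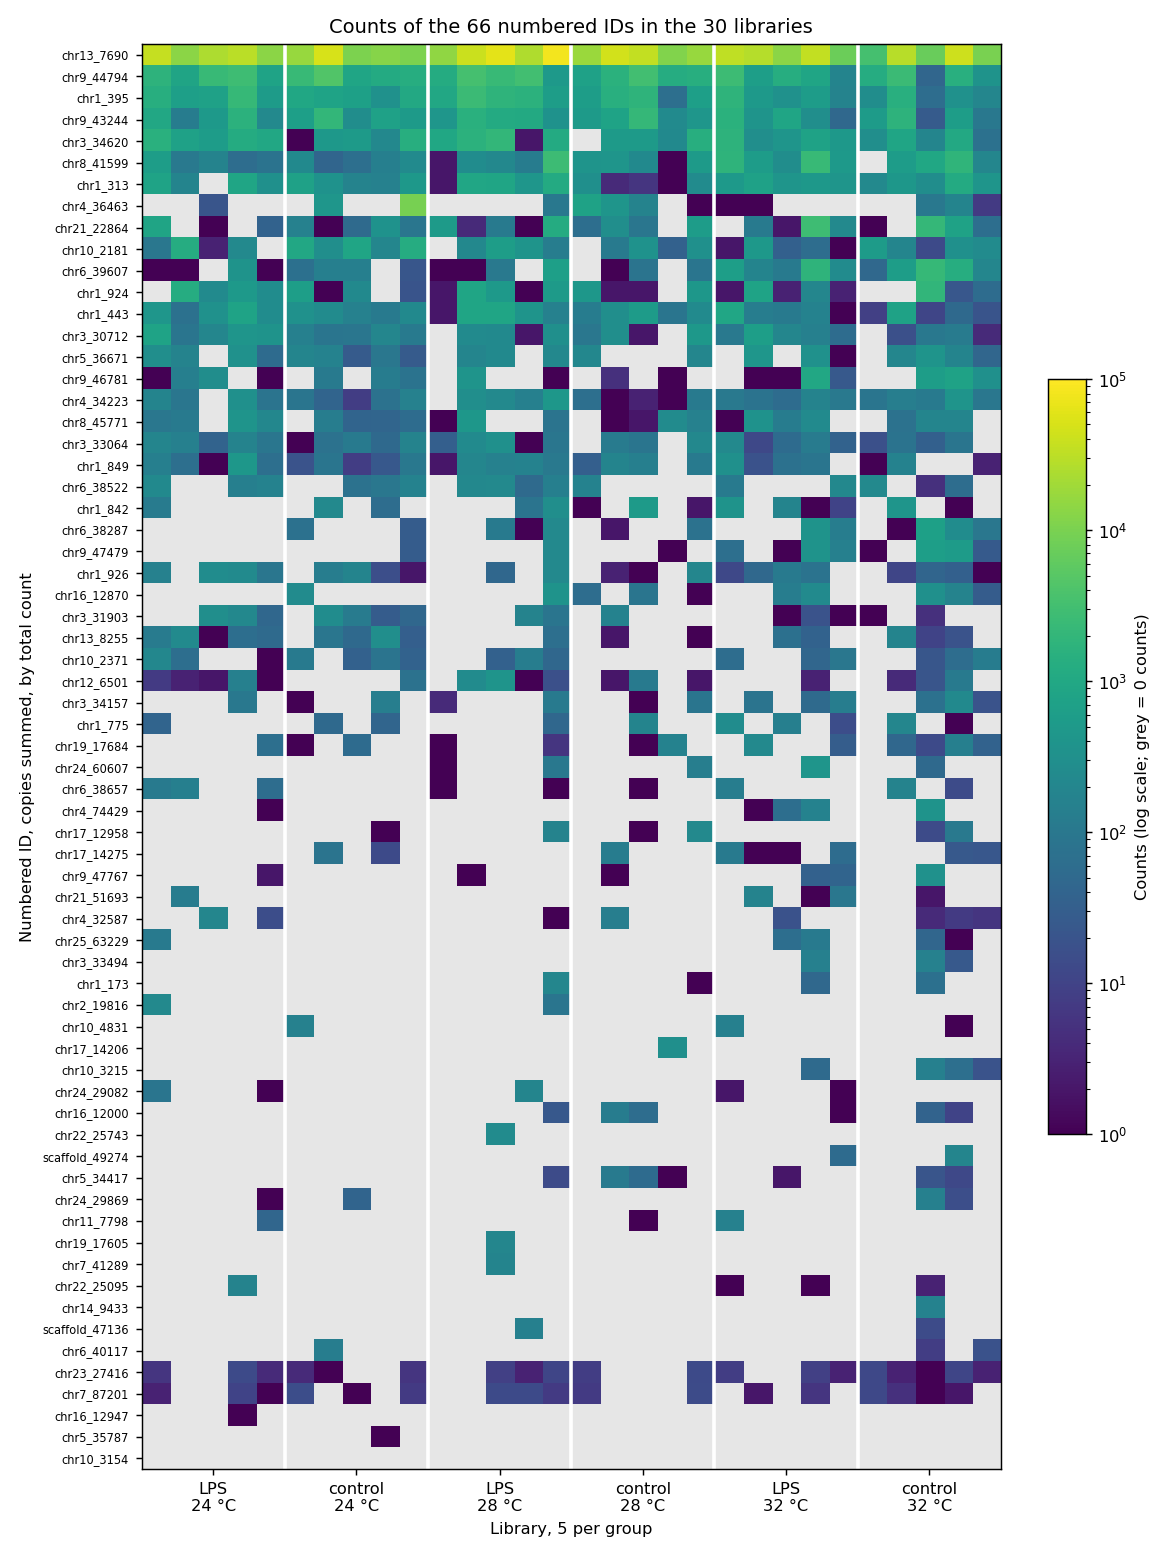
Counts of the 66 numbered IDs (rows, copies summed, ordered by total count) in the 30 libraries (columns, 5 per group), on a log colour scale with 0 in grey. chr13_7690 is high in all 30 libraries, and most IDs lower down are at 0 in some libraries and at 20 counts or more in others of the same group.

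Libraries held counts for 28.7 ± 7.80 IDs (SD, n = 30), with 16 in the library with the fewest and 49 in the deepest library. For 24, 28 and 32 °C the number was 27.2 ± 4.02, 26 ± 7.96 and 32.8 ± 9.34 (SD, n = 10 each). Thinned to 199431 counts in every library it was 26.3 ± 3.80, 23.3 ± 5.76 and 26.5 ± 4.53. At equal depth the mean at 32 °C was thus close to that at 24 °C, while it stayed above that at 28 °C. LPS and control libraries held 28.7 ± 6.96 and 28.7 ± 8.81 IDs (SD, n = 15 each).

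Rows that share a number had almost the same counts. The pair chr9_43244-1 and chr9_43244-2 had 11145 and 11433 counts, the pair chr3_34620-1 and chr3_34620-2 had 11002 and 11127, and the pair chr10_2181-1 and chr10_2181-2 had 4601 and 4653. The 4 copies of chr3_30712 had 1339 to 1422 counts, the 7 copies of chr4_34223 had 501 to 542, and the 11 copies of chr1_313 had 1099 to 1186 apart from chr1_313-9 with 1467. For 13 of the 14 IDs the chi-squared against equal shares in each library was below 2 per degree of freedom. That limit is loose and does not show an exactly even split. Of these 13, chr9_43244 had 1.55 and chr1_313 had 1.42 per degree of freedom. In chr1_313 the row chr1_313-9 held 11.3% of the counts, against an equal share of 9.09%. Another of the 13, chr5_35787, had 1 count in all, which says nothing about a split. The exception was chr5_34417, with 173 and 46 counts in its 2 rows and 11 per degree of freedom. Such rows therefore cannot be taken as separate measurements, and each copy's level is uncertain. Across the 30 libraries the 88 pairs of tested rows that share a number had Pearson r of 0.902 to 0.998 in log2 CPM. An r of this size does not by itself mark a shared number. It was 0.954 between chr9_43244-1 and chr9_44794, and 0.933 between chr1_313-9 and chr4_34223-6. Copies made up 34 of the 61 rows that could be tested, from 9 IDs that held few of the counts, since all copies together had 8.85% of the members' counts.

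**Figure D2:**
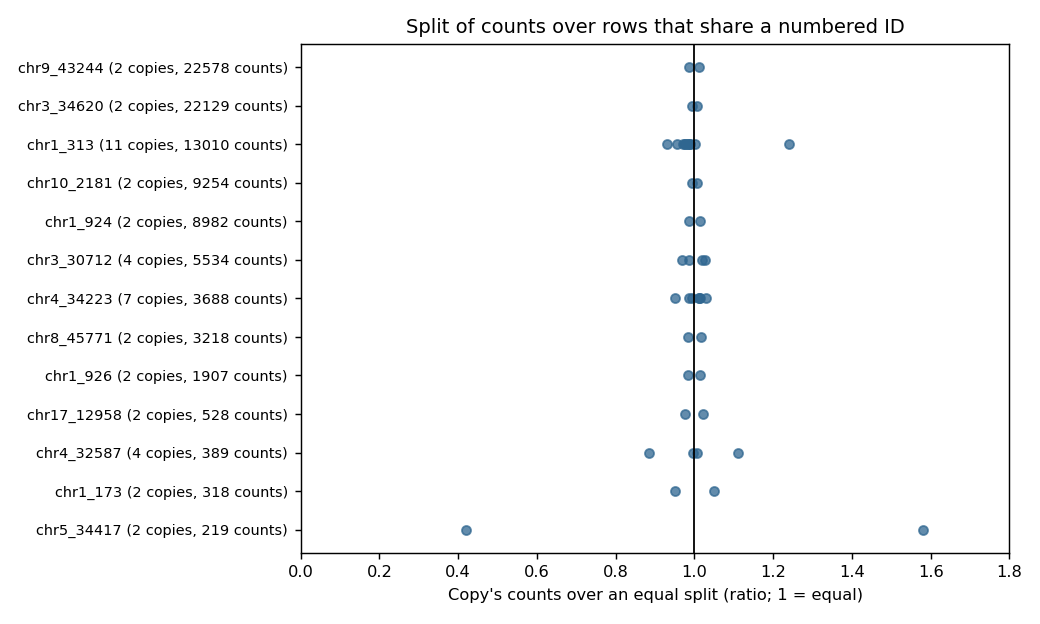
Counts of each copy over an equal split of its ID (x axis, ratio, 1 = equal) for the 13 IDs with copies and more than 1 count in all (y axis, with the number of copies and the total count). Copies sit close to 1 except chr1_313-9 and the 2 rows of chr5_34417.

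The mean share of counts held by the chromosome-named rows was lowest at 32 °C. For 24, 28 and 32 °C the means were 7.07 ± 3.47, 5.66 ± 2.09 and 2.24 ± 1.55% (SD, n = 10 each), a difference of -4.83 percentage points between 32 and 24 °C. This was not particular to these rows. Rows named after other species held 13.0 ± 2.98, 10.0 ± 1.95 and 7.22 ± 1.36% at 24, 28 and 32 °C. Zebrafish-named rows held 79.9 ± 4.94, 84.3 ± 3.12 and 90.5 ± 2.28%. The shares make up each whole library and are not independent. A share summed over the members is given without a test. Shares at 24 °C were 4.90, 5.81, 11.7, 4.83 and 6.09% in LPS libraries and 4.17, 14.0, 4.71, 4.82 and 9.63% in control libraries. Shares at 28 °C were 7.25, 6.11, 8.39, 7.85 and 2.40% in LPS libraries and 3.22, 6.40, 6.88, 4.57 and 3.50% in control libraries. Shares at 32 °C were 2.37, 5.15, 2.49, 0.830 and 1.01% in LPS libraries and 3.49, 3.88, 0.264, 1.15 and 1.78% in control libraries. The ranges at 32 and 24 °C overlapped only in 1 LPS library, replicate 2 at 32 °C. The highest share, 14.0% in replicate 3 of the 24 °C controls, had a 95% Wilson interval of 13.9 to 14.2%, and the lowest, in replicate 7 of the 32 °C controls, one of 0.261 to 0.268%, both for counting error only.

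In percentage points, most of the difference in share came from chr13_7690, which held most of the members' counts. Its own share averaged 4.93 ± 2.97, 4.45 ± 1.70 and 1.58 ± 1.19% for 24, 28 and 32 °C. Without it the share for 24, 28 and 32 °C averaged 2.15 ± 1.44, 1.21 ± 0.509 and 0.666 ± 0.504%, and the difference between 32 and 24 °C was -1.48 points. The share of the remaining rows was thus lower at 32 °C too, with medians of 1.59% at 24 °C and 0.545% at 32 °C. Their 24 °C mean includes 6.05% in control replicate 9, which had 9369 counts of chr4_36463. The share also moved with depth. The 4 deepest libraries held 56.8% of all counts but 21.0% of the members' counts, with shares from 0.264 to 2.40%. In the other 7 libraries at 32 °C the share ran from 1.01 to 5.15% with a median of 2.49%, against a median of 5.36% at 24 °C. Depth was not matched there: totals ran from 199431 to 1960952 in these 7 and from 261435 to 961405 at 24 °C. LPS libraries had 5.15 ± 2.997% and control libraries 4.84 ± 3.44% (SD, n = 15 each), a difference of 0.311 points that turned to -0.208 points without chr13_7690. It also turned to -0.157 points without replicate 3 of the 24 °C LPS libraries and to -0.0151 points without replicate 7 of the 32 °C controls.

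**Figure D3:**
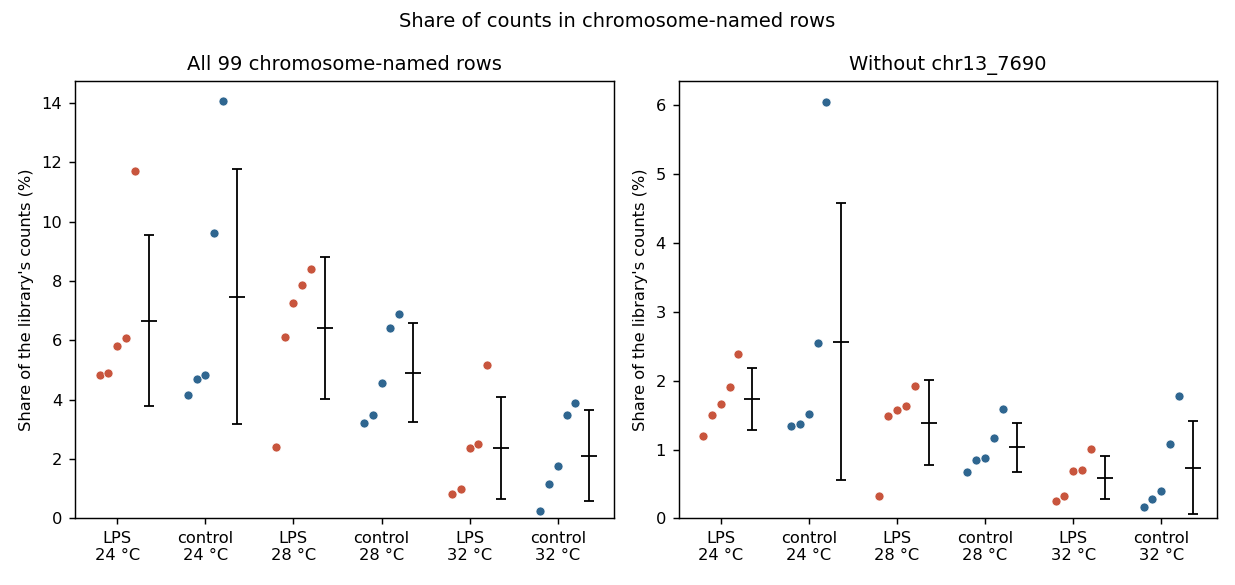
Share of each library's counts in chromosome-named rows (y axis, percent, from 0) for the 6 groups (x axis), for all 99 rows and without chr13_7690. Points are libraries and bars show mean ± SD (n = 5): the 32 °C groups average 2.37% (LPS) and 2.11% (control), against 6.67% (LPS) and 7.48% (control) at 24 °C.

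Differences between groups were tested with edgeR's quasi-likelihood test on all rows that passed a filter on low counts, with Benjamini-Hochberg adjustment over those 364 rows and a threshold of 0.05. The filter kept 61 of the 99 chromosome-named rows, from 36 of the 66 IDs. The 38 rows left out held 0.782% of the members' counts and have no test. A row of few libraries passes mainly where it is high in one group, so counts over the tested rows describe those rows only.

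Temperature averaged over both treatments was tested first. A joint test over the 3 temperatures called 5 of the 61 members, 8.20%, against 67 of all 364 rows, 18.4%, and 39 of 161 zebrafish-named rows, 24.2%. The 5 were chr13_8255 (adjusted p = 0.0229), chr9_47479, chr3_31903 and chr4_36463 (adjusted p = 0.0245 each) and chr13_7690 (adjusted p = 0.0262) by edgeR's quasi-likelihood test. Only chr13_7690 among them had counts in every library. Whether the shares called differ between members and other rows was not tested. Between 32 and 24 °C the test called 4 members, 6.56%, against 60 of 364 rows, 16.5%, whereas DESeq2 called 13 members and 21.1% of rows. DESeq2 called 2 members and 8.93% of rows in the joint test. Of the 4, 3 were lower at 32 °C, where 2.47% of all rows were called lower, and 1 was higher, where 14% of all rows were called higher. Single libraries moved these counts: the joint test called 8 members and 22.1% of rows without replicate 7 of the 28 °C controls. The test between 32 and 24 °C called 7 members and 22% of rows without replicate 6 of the 32 °C controls, but 2 members without replicate 3 of the 24 °C LPS libraries (17% of rows) or without replicate 7 of the 32 °C controls (10.1% of rows). With the log2 total count of each library in the model both tests called no member by edgeR, against 1.1% and 0.275% of rows, and depth and temperature cannot be told apart in this design.

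chr13_7690 was lower at 32 °C. At 24 °C it had 35136, 30961, 63000.4, 28096 and 34268 CPM in LPS libraries and 25306, 129929, 30252, 27595 and 28892 CPM in control libraries. At 28 °C it had 60933, 45605, 67946, 54683 and 20877 CPM in LPS libraries and 26048, 60351, 49174, 30523 and 22127 CPM in control libraries. At 32 °C it had 26967, 38759, 19685, 10938 and 6035 CPM in LPS libraries and 14841, 33937, 1429, 12620.5 and 14738 CPM in control libraries. The values at 32 and 24 °C overlapped, but 7 of the 10 libraries at 32 °C lay below the lowest library at 24 °C. For 24, 28 and 32 °C the means were 43344 ± 32271, 43827 ± 17599.5 and 17995 ± 11950.4 CPM (SD, n = 10 each). On the log2 scale 32 minus 24 °C came to -1.27 ± 0.39 (SE implied by the F statistic, adjusted p = 0.0194, edgeR). Of 10 libraries at 32 °C, 8 were below the 24 °C median. Between 32 and 28 °C it was -1.28 ± 0.39 and did not pass (adjusted p = 0.0578, edgeR), although every one of the 10 libraries at 32 °C was under the 28 °C median.

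The call on chr13_7690 was not firm. It was lost when any 1 of 14 libraries was left out, with log2 differences of -1.23 to -0.89 and adjusted p of 0.0512 to 0.177 by edgeR's test. These were replicates 8 (LPS) and 1, 3 and 5 (control) at 24 °C, replicates 4 and 5 (LPS) and 3, 5 and 7 (control) at 28 °C, and replicates 5 and 7 (LPS) and 3, 7 and 9 (control) at 32 °C. Without the 4 deepest libraries the difference was -0.86 (adjusted p = 0.1105), and with the log2 library total in the model it was -0.79 (adjusted p = 0.401). It did not pass without a count filter (-0.95, adjusted p = 0.194) or when only the groups compared were fitted (-1.29, adjusted p = 0.0637). Its joint temperature call was lost with DESeq2 (adjusted p = 0.0521), without the 4 deepest libraries (0.0717) and with depth in the model (0.194). Without replicate 3 of the 24 °C controls, the highest library, the 24 °C mean was 33723 ± 11416 CPM (n = 9). Within each treatment the difference was -0.90 ± 0.55 in LPS libraries (adjusted p = 0.414) and -1.64 ± 0.56 in control libraries (adjusted p = 0.0963), where edgeR called 2 and 3 of all 364 rows, 0.549% and 0.824%, and no member.

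The scale of the temperature difference depends on how libraries are scaled. The median log2 difference between 32 and 24 °C over all tested rows was 0.81 with TMM scaling, the trimmed mean of M-values, 0.40 with the RLE method and 0.18 with library totals. Relative to that median chr13_7690 was at -2.08, -1.76 and -1.84. Under RLE and total scaling edgeR called 4 and 5 members between 32 and 24 °C, all lower, since chr9_47479 did not pass (adjusted p = 0.0540 and 0.0693), and over all rows 41 higher and 11 lower, and 33 higher and 14 lower, against 51 higher and 9 lower with TMM. With copies of a number summed to 1 row before the fit, a step chosen after the counts were seen, the median was 0.20 and chr13_7690 was at -1.75 ± 0.41 (adjusted p = 0.00482, edgeR), or -1.95 relative to the median. In that fit chr1_395 was also called lower at 32 °C (-1.91 ± 0.65, adjusted p = 0.0406), as was chr12_6501 (-5.41 ± 1.86, adjusted p = 0.0418), which made 5 of 36 IDs against 12.7% of the 339 rows. The joint test then called 4 IDs, against 13.9% of rows, and the test between 32 and 28 °C called chr13_7690 (-1.66 ± 0.41, adjusted p = 0.0161), against 1.18% of rows.

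The other called rows had counts in 11 to 17 libraries. chr3_31903 had 0, 0, 294, 218 and 47 counts in LPS libraries and 0, 275, 119, 28 and 46 counts in control libraries at 24 °C. At 28 °C it had 0, 0, 0, 175 and 88 counts in LPS libraries and 0, 167, 0, 0 and 0 in control libraries. At 32 °C it had 0, 0, 1, 19 and 1 counts in LPS libraries and 1, 0, 5, 0 and 0 in control libraries. It was thus present at 28 counts or more in 7 of 10 libraries at 24 °C and reached at most 19 counts at 32 °C. Its log2 difference between 32 and 24 °C was -7.50 ± 2.08 (adjusted p = 0.0112, edgeR), with no library at 32 °C above the 24 °C median. The joint temperature call was lost without replicate 7 of the 32 °C controls (adjusted p = 0.0541), with depth in the model (0.167) and without the 4 deepest libraries (0.0876), and the call between 32 and 24 °C was lost without the 4 deepest libraries (-7.77, adjusted p = 0.0732) and with depth in the model (-7.07, adjusted p = 0.109). The replicate number in the model also removed the joint call.

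chr9_47479 was the called member that was higher at 32 °C. It had no count in any LPS library at 24 °C, 28 counts in replicate 9 of the 24 °C controls and none in the other 4 controls. At 28 °C it had 227 counts in 1 LPS library, replicate 8, and 1 count in 1 control library. At 32 °C it had 68, 0, 1, 362 and 152 counts in LPS libraries and 1, 0, 641, 559 and 26 in control libraries. Most of its high levels were in deep libraries. The 5 libraries at 32 °C with 56.1 CPM or more were those ranked 1, 2, 3, 5 and 6 by total count. Rank 4 was the LPS library at 28 °C, with 58.7 CPM. However, replicate 9 of the 24 °C controls had 79.9 CPM at rank 27, and replicate 9 of the 32 °C controls 39.1 CPM at rank 15. At 24 °C the row was at 0 CPM in 9 of 10 libraries. The fitted log2 difference between 32 and 24 °C was 5.53 ± 1.85 (adjusted p = 0.0339, edgeR). Because the LPS group at 24 °C was at 0 throughout, this value and its SE depend on the fit and are no bound. The call was lost when replicate 1, 3 or 6 of the 24 °C LPS libraries or replicate 7 or 8 of the 32 °C controls was left out (adjusted p of 0.0510 to 0.0625), without the 4 deepest libraries (3.66, adjusted p = 0.163), with depth in the model (2.99, adjusted p = 0.423), without a count filter (6.43, adjusted p = 0.0749), after thinning (3.74, adjusted p = 0.0697), with copies summed (4.90, adjusted p = 0.0744) and with DESeq2 (4.23, adjusted p = 0.188). Its joint temperature call was lost with library totals (adjusted p = 0.0527), DESeq2 (0.256), depth in the model (0.212) and copies summed (0.0554). The replicate number in the model also removed it.

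chr13_8255 differed over the 3 temperatures in the joint test. It had 120, 248, 1, 63 and 53 counts in LPS libraries and 0, 93, 51, 299 and 33 in control libraries at 24 °C. At 28 °C it had 67 counts in replicate 8 of the LPS libraries, 2 and 1 in 2 control libraries and none in the other 7. At 32 °C it had 71 and 38 counts in 2 LPS libraries and 183, 10 and 19 in 3 control libraries. Levels were highest at 24 °C and lowest at 28 °C, with 203 ± 229, 2.13 ± 5.41 and 34.2 ± 72.2 CPM at 24, 28 and 32 °C (SD, n = 10 each). The log2 difference between 24 and 28 °C was 6.73 ± 1.86 and did not pass on its own (adjusted p = 0.0646, edgeR). The joint call was lost without replicate 3 of the 28 °C controls (adjusted p = 0.0538) or replicate 5 of the 28 °C LPS libraries (adjusted p = 0.0553), without a count filter (0.0643), after thinning (0.0682) and with depth in the model (0.102). The replicate number in the model also removed it.

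chr4_36463 was the one member called for LPS, and a single library held most of its counts. At 24 °C it had 0, 0, 21, 0 and 0 counts in LPS libraries and 0, 428, 0, 0 and 9369 in control libraries. At 28 °C it had 0, 0, 0, 0 and 101 counts in LPS libraries and 775, 403, 176, 0 and 1 in control libraries. At 32 °C it had 1, 1, 0, 0 and 0 counts in LPS libraries and 0, 0, 100, 183 and 7 in control libraries. Counts were thus present in 4 of 15 LPS libraries, of which 2 had 1 count, and in 9 of 15 control libraries. Replicate 9 of the 24 °C controls alone held 81.0% of its 11566 counts. Averaged over temperatures the log2 difference between LPS and control was -6.75 ± 1.46 (adjusted p = 0.0202, edgeR), 1 of 61 members or 1.64%, against 2 of 364 rows, 0.549%, all called lower. Without replicate 9 of the 24 °C controls it was -5.07 (adjusted p = 0.188).

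The LPS call on chr4_36463 was lost when any 1 of 15 libraries was left out, with adjusted p of 0.0514 to 0.188. These were replicates 1, 2 and 6 (LPS) and 9 (control) at 24 °C, replicates 1, 2, 5 and 8 (LPS) and 3 (control) at 28 °C, and replicates 1, 2, 3 and 7 (LPS) and 3 and 8 (control) at 32 °C. It was also lost without the 4 deepest libraries (-7.30, adjusted p = 0.252) and with copies summed (-6.67, adjusted p = 0.0640, where 0.295% of rows were called), and DESeq2 kept it (-6.63, adjusted p = 0.00398). The row had counts in 3 libraries at 24 °C, up to 9369, and in 5 at 32 °C, up to 183. Its median count at 24 °C was 0, a value that 5 of the 10 libraries at 32 °C exceeded and none could fall under. A lower level at 32 °C was thus not seen in most libraries. Between 32 and 24 °C the same row had a fitted log2 difference of -6.35 ± 1.78 (adjusted p = 0.0121, edgeR). That call was lost without replicate 9 of the 24 °C controls (-4.28, adjusted p = 0.106) or without replicate 3 of the 24 °C LPS libraries (-3.11, adjusted p = 0.974), the only LPS library with counts at that temperature, without the 4 deepest libraries (-7.38, adjusted p = 0.104) and with depth in the model (-8.53, adjusted p = 0.105). Its joint temperature call was lost without these same libraries (adjusted p = 0.187 and 0.116), without replicate 3 of the 32 °C controls (0.0536), or without replicate 1, 3 or 7 of the 32 °C LPS libraries (0.0506 to 0.0659), and with DESeq2 (0.142), thinning (0.0716), depth in the model (0.134) and without the 4 deepest libraries (0.0845).

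**Figure D4:**
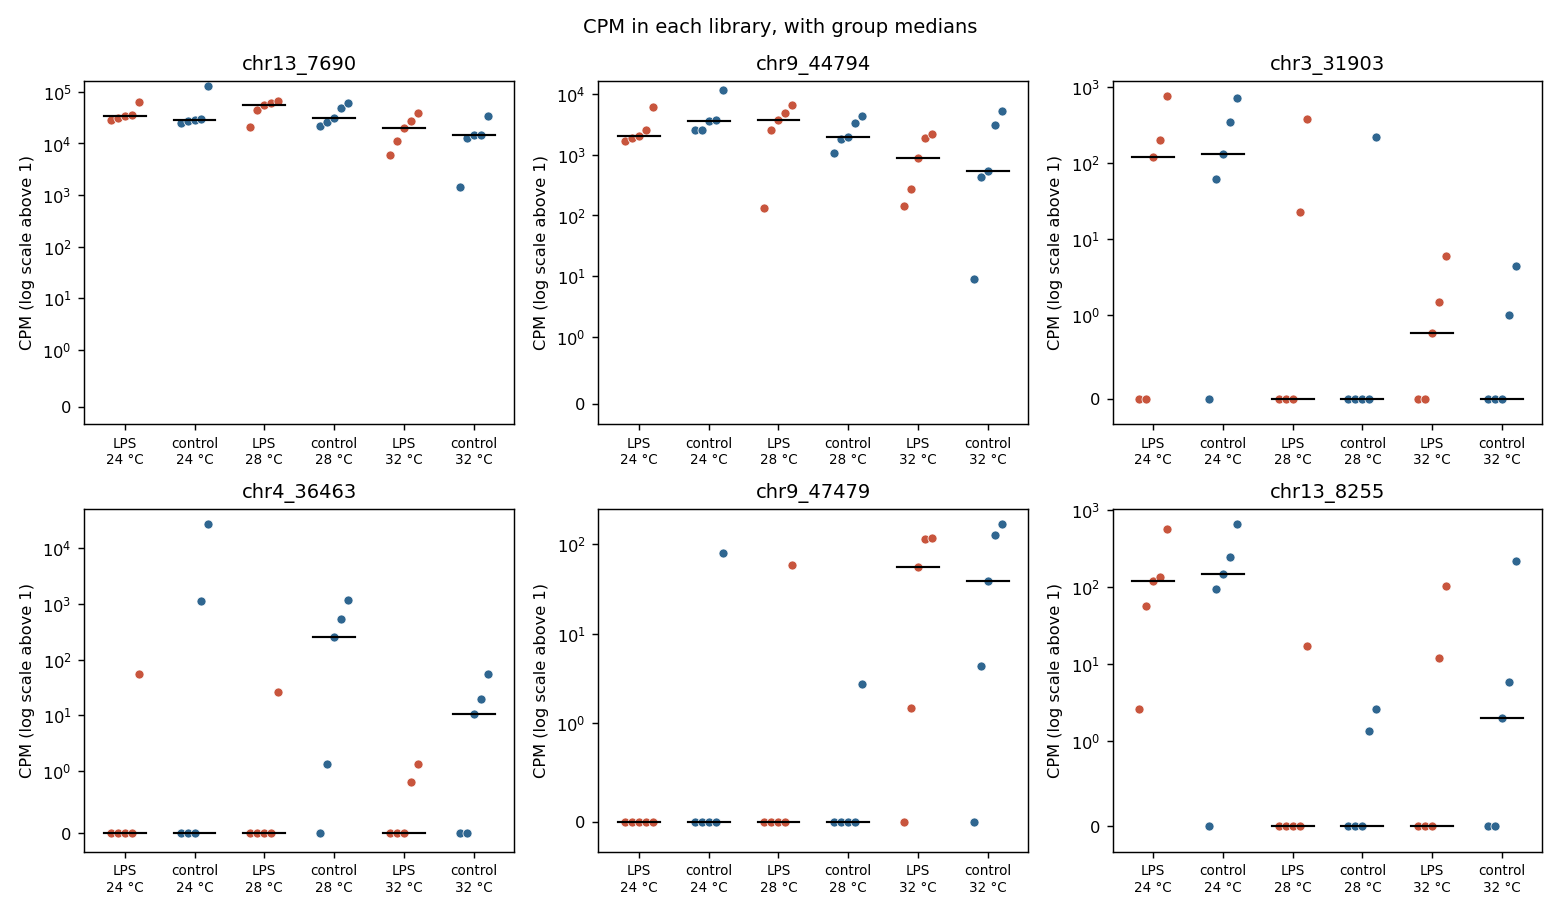
CPM (y axis, log scale above 1 and linear below) of the 5 called rows and of chr9_44794 in each library of the 6 groups (x axis), with a line at the group median. chr13_7690 and chr9_44794 are above 0 in all 30 libraries. Each of the other 4 rows is at 0 in part of the group that holds its highest value, and in most libraries of some other group.

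The other abundant members did not pass any test of temperature in the fit of the rows as deposited. chr9_44794, the second most abundant, averaged 3836 ± 3010.4, 3073 ± 1929 and 1483 ± 1702 CPM for 24, 28 and 32 °C (SD, n = 10 each). Its log2 difference between 32 and 24 °C was -1.38 ± 0.64 (adjusted p = 0.131, edgeR), with 8 of 10 libraries at 32 °C below the 24 °C median. chr1_395 averaged 1750.2 ± 603, 1901 ± 1353 and 638 ± 629 CPM at 24, 28 and 32 °C, with a log2 difference of -1.46 ± 0.62 (adjusted p = 0.106) and 9 of 10 libraries below the 24 °C median. chr1_443 averaged 547 ± 224, 475 ± 375.4 and 215 ± 333 CPM (-1.35 ± 0.92, adjusted p = 0.312), and the copies chr9_43244-1 and chr3_34620-1 had log2 differences of -0.79 ± 0.77 (adjusted p = 0.516) and -1.37 ± 0.90 (adjusted p = 0.291). These 5 rows had lower mean levels at 32 °C than at 24 °C, and none passed the threshold.

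Other members had higher mean levels at 32 °C. chr8_41599 averaged 323 ± 208, 362 ± 250.4 and 557 ± 412 CPM for 24, 28 and 32 °C, with a log2 difference of 0.68 ± 0.83 (adjusted p = 0.600, edgeR). chr6_39607, picked out after its values were seen, had counts in 8, 7 and 10 libraries and averaged 132 ± 177, 53.4 ± 69.2 and 382 ± 189 CPM at 24, 28 and 32 °C. Every one of the 10 libraries at 32 °C exceeded the 24 °C median of 32.7 CPM, but its fitted difference was 1.71 ± 1.30 (adjusted p = 0.380).

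As a group, 51 of the 61 tested members had a log2 difference below 0 between 32 and 24 °C, with a median of -0.79, whereas the median over all 364 tested rows was 0.81 and that over the 161 zebrafish-named rows was 1.25. Since copies repeat one ID, the same description with copies summed is 27 of 36 IDs below 0 and a median of -1.61, against 0.20 over all 339 rows. The members' median was below 0 under RLE scaling (-0.77) and under library totals (-1.13) too. In 39 of the 61 rows, 63.9%, at least 8 of the 10 libraries at 32 °C lay below the 24 °C median, against 72 of all 364 rows, 19.8%. The 72 include these 39, and each copy was counted as a row, although 34 of the 61 rows are copies of 9 IDs. This count was not made with copies summed. No row, member or not, had groups that did not overlap. Between 24 and 28 °C the members' median was 0.92 with 51 of 61 above 0, against 0.11 over all rows. Between 32 and 28 °C it was 0.21 against 0.83. With copies summed the median between 24 and 28 °C was 0.84 with 29 of 36 IDs above 0, against 0.13. Between 32 and 28 °C it then changed sign, to -0.30 with 16 of 36 above 0, against 0.35. These comparisons share libraries and are not independent of each other.

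**Figure D5:**
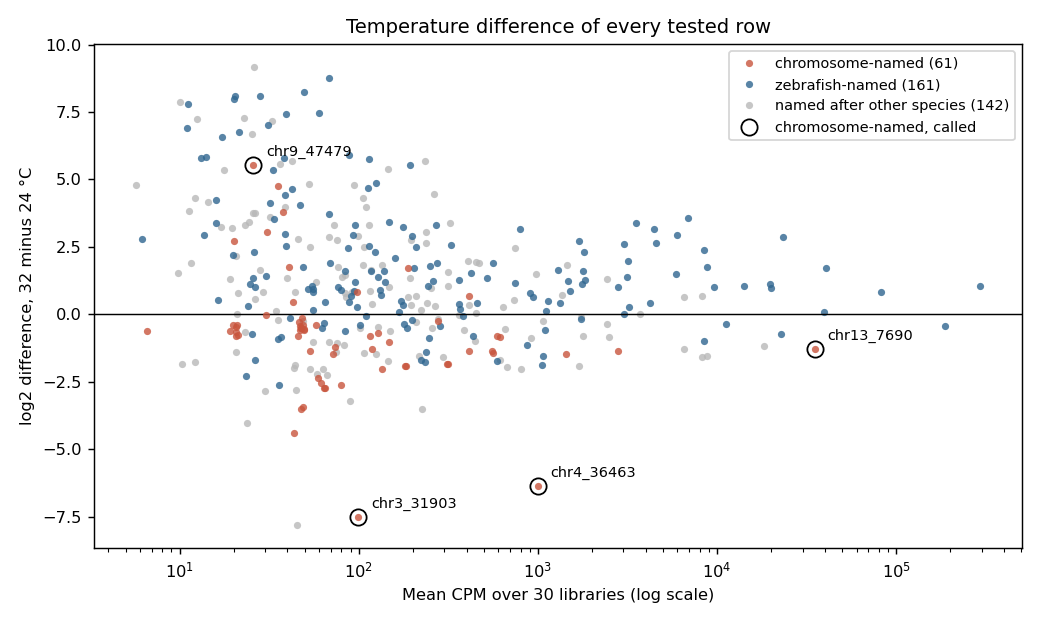
log2 difference between 32 and 24 °C (y axis) against mean CPM over the 30 libraries (x axis, log scale) for the 364 tested rows, coloured by kind of name, with the 4 called members ringed. The chromosome-named points lie mostly below 0 with a median of -0.79, against 1.25 for zebrafish-named rows.

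No member was called between 32 and 28 °C or between 24 and 28 °C by edgeR, where 2.75% (2.2% higher, 0.549% lower) and 0% of all rows were called. At an unadjusted p under 0.05 there were 10 and 4 members, against 87 and 55 of all 364 rows. DESeq2 called 4 and 2 members, against 8.66% and 9.78% of rows. Without replicate 8 of the 28 °C LPS libraries edgeR called 5 members between 32 and 28 °C, against 16.5% of rows, and 1 between 24 and 28 °C, against 0.787%. Without replicate 9 of the 24 °C controls it called 2 between 32 and 28 °C, against 3.08% of rows. Leaving out replicate 3 of the 32 °C controls gave 1 in each comparison, against 1.55% and 5.44% of rows. Each of 13 other libraries, when left out, gave 1 between 32 and 28 °C. The share of all rows called there ran from 0 to 16.5% over the 30 left-out libraries. The smallest p between 32 and 28 °C after chr13_7690 belonged to chr12_6501 (-5.29 ± 1.78) and chr3_31903 (-5.52 ± 1.91), both with an adjusted p of 0.0853. chr12_6501 had counts in 7 libraries at 28 °C, up to 381, and in 4 at 32 °C, up to 111. After chr13_8255, the smallest p between 24 and 28 °C belonged to chr10_2371 (adjusted p = 0.138), absent from every control library at 28 °C, and chr6_38287 (-3.75 ± 1.74, adjusted p = 0.299). chr6_38287 had no count in any LPS library at 24 °C, so its log2 value and SE depend on the fit. Its means were 19.1 and 29.3 CPM at 24 and 28 °C.

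LPS against control within a single temperature called no member and 0% of all rows by edgeR. At an unadjusted p under 0.05 the temperatures 24, 28 and 32 °C had 6, 4 and 5 members, against 44, 48 and 7 of all 364 rows. Each copy counts as a row there, so these are not numbers of IDs. DESeq2 called 3, 2 and 0 members, against 5.87%, 5.03% and 0.279% of rows. The smallest p at 24 °C belonged to chr4_36463, chr6_38657 and chr16_12870 (adjusted p = 0.276 each). chr6_38657 had 112, 141 and 61 counts in 3 of the 5 LPS libraries and none in the controls at 24 °C, while chr16_12870 had 260 counts in 1 control library and none in the LPS libraries. At 28 °C the smallest p belonged to chr10_2371, chr17_14275 and chr4_36463 (adjusted p = 0.244 each), with chr10_2371 in 3 LPS libraries at 36, 131 and 46 counts and in no control. At 32 °C it was copies of 1 ID, chr3_30712 (adjusted p = 0.999), whose first copy had 64.3 ± 78.1 CPM in LPS libraries and 3.81 ± 3.12 CPM in control libraries (SD, n = 5 each).

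Averaged over temperatures, the smallest p after chr4_36463 belonged to chr17_14275 (adjusted p = 0.203, edgeR) and chr16_12870 (-3.25 ± 1.48, adjusted p = 0.470). chr16_12870 had no count in any LPS library at 24 °C, so its log2 value and SE depend on the fit. Its means were 24.7 CPM in LPS and 50.9 CPM in control libraries. At 32 °C the LPS mean was the higher one, 54.4 against 31.9 CPM. chr17_14275 was absent from all LPS libraries at 24 and 28 °C and had 84, 13 and 127 counts in 3 control libraries there. For chr13_7690, the most abundant member, the LPS difference averaged over temperatures was 0.16 ± 0.31 (adjusted p = 0.942, edgeR). It averaged 38292 ± 14092 CPM in LPS and 48395 ± 45615 CPM in control libraries at 24 °C (SD, n = 5 each), where the control mean was 28011 ± 2105 CPM without replicate 3 (n = 4). At 28 °C the means were 50009 ± 18242 CPM (LPS) and 37645 ± 16389.7 CPM (control). At 32 °C they were 20477 ± 13005 CPM (LPS) and 15513 ± 11696 CPM (control). Across members the median difference between LPS and control was 0.35, with 43 of 61 rows above 0, against 0.10 over all tested rows. It differed in sign between temperatures: for 24, 28 and 32 °C the members' medians were -0.31, 0.81 and 0.04, with 21, 44 and 31 of 61 rows above 0, against medians of 0, 0.04 and -0.11 over all rows. At 32 °C the members' median was -0.14 with RLE scaling and -0.11 with library totals. With copies summed the average over temperatures was 0.19, with 20 of 36 IDs above 0, against 0.07.

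A dependence of the LPS difference on temperature was not found for any member. The joint interaction test of edgeR called no member and 0% of all rows, 5 members had an unadjusted p under 0.05, against 44 of all 364 rows, and DESeq2 called 0 members and 0.279% of rows. The smallest p belonged to chr9_47479, chr17_14275 and chr10_2371 (adjusted p = 0.326 each).

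The most abundant IDs followed each other closely over the 30 libraries, which share their depth and scaling, so the correlations are descriptions. Among the 37 IDs with at least 500 counts, copies summed, 10 of 666 pairs had a Pearson r of 0.8 or more in log2 CPM scaled by library totals. Of these, 6 were the pairs among chr13_7690, chr9_44794, chr1_395 and chr9_43244, with r from 0.868 to 0.964, highest between chr9_44794 and chr9_43244. The count ratio of those was 2.22 at the median, with a range of 1.34 to 6.61. That of chr13_7690 to chr9_44794 was 12.2 at the median but ranged from 2.77 to 163, so these IDs moved together without a fixed ratio. The other 4 pairs were chr1_313 with chr4_34223 (r = 0.948, median ratio 3.15), chr1_842 with chr1_775 (r = 0.923), chr3_34620 with chr3_33064 (r = 0.830) and chr1_443 with chr1_849 (r = 0.810). Of the 30 libraries, 16 had no count of chr1_842 or chr1_775 and 10 had counts of both, so shared absence enters that r. chr1_924 and chr1_926, the pair of IDs with the closest numbers on 1 chromosome, had r = 0.173, while chr1_313 and chr4_34223 were alike from different chromosomes. The limits on counts and r were set after the values were seen.

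Likeness to rows outside the members was taken over the rows as deposited, in TMM-scaled log2 CPM, a scale on which chr13_7690 and chr9_44794 had r = 0.855, against 0.886 with library totals. The outside row most like chr13_7690 was the one named hsa-miR-1260a (r = 0.840 over 30 libraries). For chr9_44794 (r = 0.865), chr9_43244-1 (0.863), chr9_43244-2 (0.858), chr1_395 (0.857) and chr1_443 (0.832) it was the same zebrafish row, dre-miR-30c-3p. For chr8_41599 it was dre-miR-456 (r = 0.878) and for chr9_47479 dre-miR-7132-3p (r = 0.813). The other rows had no such close match: the highest r was 0.560 for chr13_8255 (hsa-miR-214-3p), 0.533 for chr3_31903 (dme-miR-2493-5p), 0.479 for chr4_36463 (ola-miR-125c), 0.378 for chr3_34620-1 (mmu-miR-1187) and 0.354 for chr3_34620-2 (hsa-let-7b-3p). Names of other species mark rows whose assignment is uncertain.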

How the data were processed

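Small RNA of 30 spleen libraries was analysed from 1 table of deposited counts, whole numbers of reads per row and library as the authors deposited them. Per the labels' protocols, libraries were built from 50 ng of RNA with 22 PCR cycles. Tools in the submitters' processing notes, whose roles are not stated there, are cutadapt 1.12, FastQC 0.11.5, DESeq2 1.11.1 and bcl2fastq. How reads were aligned and counted, on which build, and how chromosome-named rows were made is not given in the sources used here, nor is any removal of PCR copies, so counting limits cover counting error only. The members and lists were chosen with earlier results of these data known.

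Members were found by name pattern. Rows were filtered with filterByExpr on 6 groups (364 of 8866 kept), scaled with TMM and fitted with edgeR 4.0.16 (R 4.3.3, robust quasi-likelihood, 24 residual degrees of freedom). p-values were adjusted over all tested rows. CPM are TMM-scaled, and shares use library totals. Tested on simulated data with the rows' own spread, the fit missed most changes, so a row without a call is not shown to be unchanged. Named rows are those called, the 10 with the highest mean CPM, and in tests with fewer than 5 calls the 3 with the smallest p. Each is matched to the row outside the members with the highest r. Alternatives were DESeq2 1.42.0, RLE and total scaling, other filters, depth as covariate, thinning, a replicate block, fewer groups or rows and leaving out libraries. Of 60 library pairs within groups none were alike within sampling noise (smallest chi-squared per degree of freedom 90.8). Sequences were not analysed here.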

Additional observations from a re-analysis of the deposited data

Results flagged for a closer look

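In 20 of 53 groups of 5 libraries with any spread, 1 library stood apart from the other 4 in the share of counts or in a named row's CPM. A chance rate of about 1 in 20 groups is no guide here. A row at 0 in the other 4 libraries can be flagged for a single count, and the measures share libraries. Values here are CPM unless said otherwise.

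Replicate 3 at 24 °C stood apart in both treatments. In LPS libraries it had a share of 11.7%, against 4.83 to 6.09% in the others, 63000.4 for chr13_7690 (others 28096 to 35136) and 6113 for chr9_44794 (others 1715 to 2584). In control libraries it had 129929 for chr13_7690 (others 25306 to 30252) and 11586 for chr9_44794 (others 2534 to 3710.4).

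Other flagged values belong to rows at 0 in many libraries. chr4_36463 had 26740.4 in replicate 9 of the 24 °C controls, 54.3 in replicate 3 of the 24 °C LPS libraries and 26.1 in replicate 8 of the 28 °C LPS libraries, where the other LPS libraries were at 0. chr3_31903 had 760 in replicate 3 (LPS, 24 °C), 377 in replicate 5 (LPS, 28 °C), 218 in replicate 2 (control, 28 °C), 5.95 in replicate 5 (LPS, 32 °C) and 4.36 in replicate 3 (control, 32 °C). chr9_47479 had 79.9 in replicate 9 (control, 24 °C), 58.7 in replicate 8 (LPS, 28 °C) and 2.72 in replicate 5 (control, 28 °C). chr13_8255 had 565 in replicate 2 (LPS, 24 °C), 17.3 in replicate 8 (LPS, 28 °C), 104 in replicate 3 (LPS, 32 °C) and 218 in replicate 6 (control, 32 °C). Replicate 8 of the 28 °C LPS libraries, flagged for 3 rows, was also the deepest library outside 32 °C.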

How the results depend on the processing

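Counts of called members depended on the processing more than their directions did, and the cause was not tested. Over the alternatives below no called row changed sign where it was tested. The stricter filter, of 10 counts in 15 libraries, could not keep chr13_8255, chr3_31903, chr4_36463 or chr9_47479. These had 5 counts or more in 14, 12, 10 and 8 libraries. The lower numbers of calls under that filter therefore say nothing about these rows. The joint temperature test, with 5 calls, gave 2 with DESeq2 (8.93% of all rows in that fit), 11 without a count filter (9.3%), 1 with the filter of 10 counts in 15 libraries (12.2%), which tests 44 members, 0 with depth as covariate (1.1%), 3 after thinning (11.8%), 2 without the 4 deepest libraries (9.16%) and 4 to 8 when each library was left out (11.2 to 25.5%). Between 32 and 24 °C, with 4 calls, the same settings gave 13 (21.1%), 2 (2.51%), 1 (13.2%), 0 (0.275%), 5 (12.1%), 0 (4.19%) and 2 to 7 (10.1 to 22.7%). Between 32 and 28 °C, with 0, total-count scaling, no filter, the stricter filter, the covariate, thinning and summed copies, chosen after seeing the data, gave 1 each (0.314 to 5.37%), DESeq2 gave 4 (8.66%), and leaving out libraries 0 to 5 (0 to 16.5%). Between 24 and 28 °C DESeq2 gave 2 (9.78%) and leaving out libraries 0 to 1 (0 to 5.44%). For LPS against control averaged over temperatures, with 1 call, DESeq2 gave 4 (5.31%), the stricter filter, fewer deep libraries and summed copies gave 0 (0 to 0.295%), and leaving out libraries 0 to 1 (0 to 1.03%); at 24 and 28 °C DESeq2 gave 3 (5.87%) and 2 (5.03%). At 32 °C and for the interaction every alternative gave 0. The within-treatment temperature contrasts were also added after seeing the data.

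Replicate numbers were not used to pair the libraries, since the labels do not say what they share. Of 8 same-number pairs of LPS and control, 2 correlated above 0.1 (range -0.07 to 0.33). These were replicates 3 (0.33) and 7 (0.23) at 32 °C. Pairs with different numbers were not compared, so shared handling by replicate number was not tested. With the replicate number as a block, the fit called 1 member in the joint test (2.75% of rows), 3 between 32 and 24 °C (8.79%), 1 between 32 and 28 °C (0.824%) and 0 for LPS (0%).

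The difference in mean share between 32 and 24 °C moved to -1.48 points without chr13_7690 and stayed between -5.15 and -4.06 points when each library was left out. That between LPS and control turned to -0.208 points without chr13_7690 and ran from -0.157 to 0.970 points over the left-out libraries, below 0 without replicate 3 of the 24 °C LPS libraries and, at -0.0151, without replicate 7 of the 32 °C controls. Depth limits the rare IDs: in the shallowest library a count of 0 allows up to 13.0 CPM on the TMM scale.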
